A study of Caenorhabditis elegans with 2 samples.

Results

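Ubiquitin is a small protein that is joined to other proteins in a chain of 3 steps. An activating enzyme (E1) charges it, a conjugating enzyme (E2) receives it, and a ligase (E3) passes it to the target, while deubiquitinases take it off again. HECT ligases carry ubiquitin on their own active site, whereas cullin ligases are scaffolds that hold a RING protein at one end and, in the case of CUL-1, a Skp1-related adaptor and an F-box protein at the other. Nematodes have many Skp1-related genes. The genes described here are the 64 protein-coding genes of the WBcel235 annotation whose names begin with ubq-, uba-, ubc-, cul-, skr- or usp-, together with the HECT ligase genes eel-1, wwp-1 and hecd-1. They are 64 of 19985 protein-coding genes and comprise 2 ubiquitin genes, 3 E1 genes with the uba- prefix, 21 E2 genes, 6 cullin genes, 20 Skp1-related genes, 3 HECT ligase genes and 9 deubiquitinase genes. The prefixes ubc- and uba- also take in enzymes of the ubiquitin-like proteins SUMO, NEDD8 and UFM1.

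The binding of MADF-10, a nematode protein with a MADF domain, was mapped by chromatin immunoprecipitation and sequencing. Strain OP508 carries the mutation unc-119(tm4063) and the transgene wgIs508, which gives MADF-10 with GFP and FLAG at its C terminus, and the pull-down used an antibody to GFP. The 2 biological replicates, which form 1 group, were whole young adult hermaphrodites at 68 h after synchronization as starved L1 larvae, so the signal is a mixture over all tissues and nothing was compared between conditions. The control experiment named in the labels was not analysed here. For each gene the strongest region was taken whose summit was at most 1000 bp upstream or 200 bp downstream of a transcript start, and the signal is the authors' value for that region. A gene is called bound where the region was in the authors' list of 1869 reproducible peaks, which end at a signal of 92.26 in the pooled list. The pooled list held 30000 regions with a median signal of 23.27, the list of replicate 1 held 25924 with a median of 10.83, and that of replicate 2 held 30000 with a median of 17.89. The sources used here do not give the depth, and signals are therefore set side by side only within a list. All coordinates are those of build ce11.

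MADF-10 was found at the promoters of ubiquitin itself and of uba-1, whose product activates it, and at none of the cullin scaffolds and Skp1-related adaptors. Both ubiquitin genes and all 3 uba- genes of the E1 class had a reproducible promoter peak, as did 4 of 21 E2 genes, 2 of 3 HECT ligase genes and 2 of 9 deubiquitinase genes. None of the 6 cullin genes and none of the 20 Skp1-related genes had one. In all, 13 of the 64 genes (20.3%) were bound, against 6.38% of all protein-coding genes. At that share, classes of this size would hold 0.128 ubiquitin, 0.191 E1, 1.34 E2, 0.383 cullin, 1.28 Skp1-related, 0.191 HECT and 0.574 deubiquitinase genes. The absence of peaks from the cullin and Skp1-related genes is therefore near the background for lists of 6 and 20 genes. The classes were described by these counts alone and the differences between them were not tested, since genes are not replicates. Members and classes were chosen with earlier results of these data known, and the HECT genes had been named with their peaks already known. The share of 20.3% beside 6.38% is therefore a description and no support.

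The count was similar in each replicate. Among as many of the strongest regions of each replicate's own list, 11 of the 64 genes were bound in replicate 1, where the share of all genes was 6.05%, and 12 in replicate 2, where it was 6.4% (mean 11.5 ± 0.707, SD, n = 2). The shares were 17.2% and 18.8%. No gene outside the 13 was bound in either replicate, and 10 of the 13 were bound in both. The exceptions were uba-2 and ubc-25, which fell short in replicate 1, and uba-5, which fell short in replicate 2. Across the 27 genes with a promoter region in both replicate lists, Pearson's r of log2 signal was 0.847 and Spearman's rho was 0.857, as a description of regions from a single pair of libraries.

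**Figure D1:**
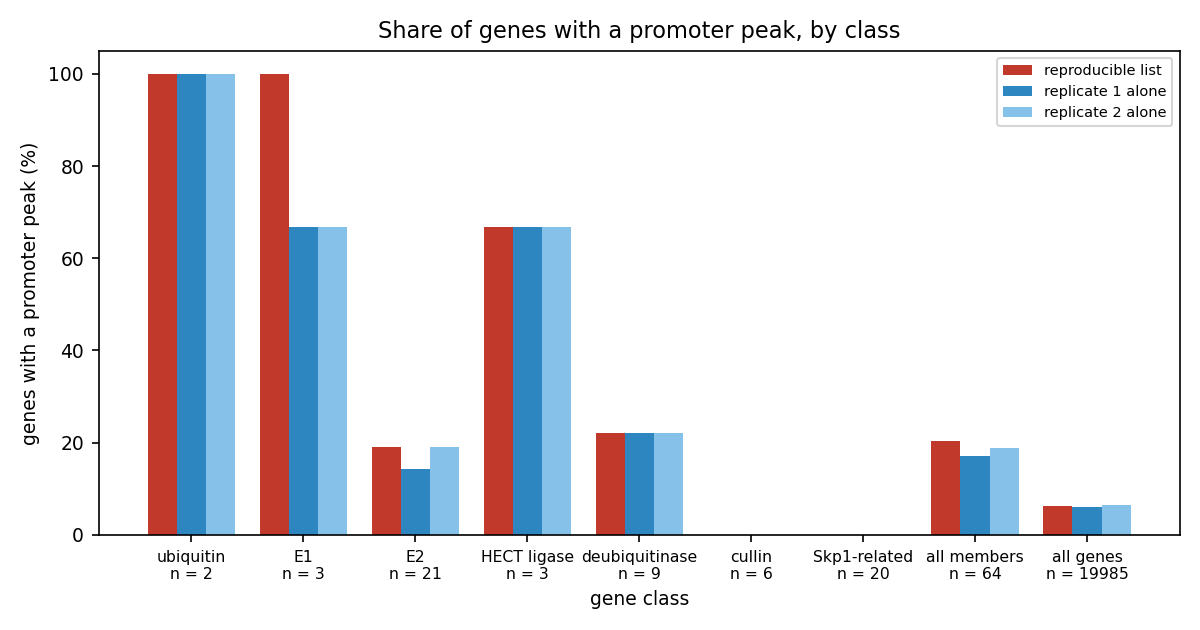
Share of genes (vertical axis, %) with a promoter peak in each gene class (horizontal axis, n genes) in the reproducible list and among as many of the strongest regions of each replicate. The bars for cullin and Skp1-related genes are at 0, and those for all protein-coding genes are at 6.38%, 6.05% and 6.4%.

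The windows of 50 bp to either side of the summit are printed for 6 of the bound genes, on the strand of the gene, because they show the sequence that lay under the peaks of the ubiquitin genes, an E1 gene, the strongest E2 genes and the strongest HECT ligase gene. Capitals mark a searched motif at ubq-1 (CTGCGTCT) and ubq-2 (GAGAGA on the other strand), the 8-base run CCCCTTTT at ubc-9 and eel-1, and the arms of an inverted repeat at ubc-6. The windows lie at chrIII:5940582-5940682 (plus strand, ubq-1), chrIII:12978957-12979057 (minus, ubq-2), chrIV:9995188-9995288 (minus, uba-1), chrIV:4650742-4650842 (plus, ubc-9), chrII:7478991-7479091 (plus, ubc-6) and chrIV:3050566-3050666 (minus, eel-1).
ubq-1: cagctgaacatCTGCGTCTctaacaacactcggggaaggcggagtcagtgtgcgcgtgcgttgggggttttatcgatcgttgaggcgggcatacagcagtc
ubq-2: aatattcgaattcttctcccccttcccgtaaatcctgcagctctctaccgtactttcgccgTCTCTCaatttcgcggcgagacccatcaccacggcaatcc
uba-1: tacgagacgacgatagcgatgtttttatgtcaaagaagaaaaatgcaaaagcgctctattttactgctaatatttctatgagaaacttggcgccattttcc
ubc-9: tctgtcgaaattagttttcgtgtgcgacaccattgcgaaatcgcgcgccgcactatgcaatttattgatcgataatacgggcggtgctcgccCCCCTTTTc
ubc-6: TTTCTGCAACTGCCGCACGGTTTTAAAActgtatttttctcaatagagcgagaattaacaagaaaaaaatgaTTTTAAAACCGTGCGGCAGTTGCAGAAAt
eel-1: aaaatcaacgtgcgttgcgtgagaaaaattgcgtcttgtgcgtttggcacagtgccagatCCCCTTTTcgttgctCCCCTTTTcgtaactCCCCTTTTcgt

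Both ubiquitin genes were bound, at ranks 1040 and 1181 of the pooled list. The gene ubq-1 (WBGene00006727) encodes polyubiquitin, several copies of ubiquitin in a row that are cut apart later. Its region (chromosome III, 5940581 to 5940752, gene on the plus strand) had a pooled signal of 129.96, with 40.6 in replicate 1 and 95.4 in replicate 2. Its summit lay in an intron of ubq-1, 354 bp upstream of the nearest start and 378 bp downstream of the outermost one. The gene ubq-2 (WBGene00006728) encodes ubiquitin joined to a protein of the large ribosomal subunit. Its region (chromosome III, 12978948 to 12979053) had a pooled signal of 120.2, with 46.8 in replicate 1 and 71.1 in replicate 2. That summit lay between genes, 484 bp upstream of ubq-2 and 155 bp upstream of the divergent gene frg-1. Neither gene was in the stronger 50% of the reproducible peaks. When a peak counted only for the gene with the nearest start, ubq-2 was not bound, and with outermost starts only, ubq-1 was not.

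The 3 uba- genes, which stand at the head of 3 different conjugation pathways, were all bound, at ranks 882 to 1706. Among E1 subunit genes that the name rule leaves out, 3 were looked up, and none of these was bound. They are aos-1, the partner of uba-2, with no pooled region in its promoter window, and the NEDD8 E1 subunit genes ula-1 and rfl-1, with pooled signals of 23.3 and 30.2. That count of 0 is near the background, since 3 genes would hold 0.191 at the share of all protein-coding genes. The gene uba-1 (WBGene00006699), whose product charges ubiquitin itself, had a pooled signal of 142.7 at rank 882, with 63.1 in replicate 1 and 77.1 in replicate 2. Its summit lay between genes, 293 bp upstream of the start (chromosome IV, 9995028 to 9995447). The gene uba-2 (WBGene00006700), a subunit of the SUMO-activating enzyme, had a pooled signal of 107.5, with 27.6 in replicate 1 and 80.03 in replicate 2. Its summit (chromosome I, 12741063 to 12741482) lay 315 bp upstream of uba-2 and 2 bp from the start of the divergent gene vps-25, an ESCRT-II component, and in a non-coding exon of vps-25. The gene uba-5 (WBGene00020184), which activates UFM1, had a pooled signal of 97.7, with 35.9 in replicate 1 and 61.8 in replicate 2. Its summit (chromosome I, 3873768 to 3874187) was in an intron of uba-5, 387 bp upstream of the nearest start and 534 bp downstream of the outermost one. Replicates thus placed uba-1 on the bound side in both lists, and uba-2 and uba-5 in only 1 list each. In the stronger 50% of the peaks 1 of the 3 was bound. When a peak counted only for the gene with the nearest start, uba-2 was not bound, and with outermost starts only, uba-5 was not.

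**Figure D2:**
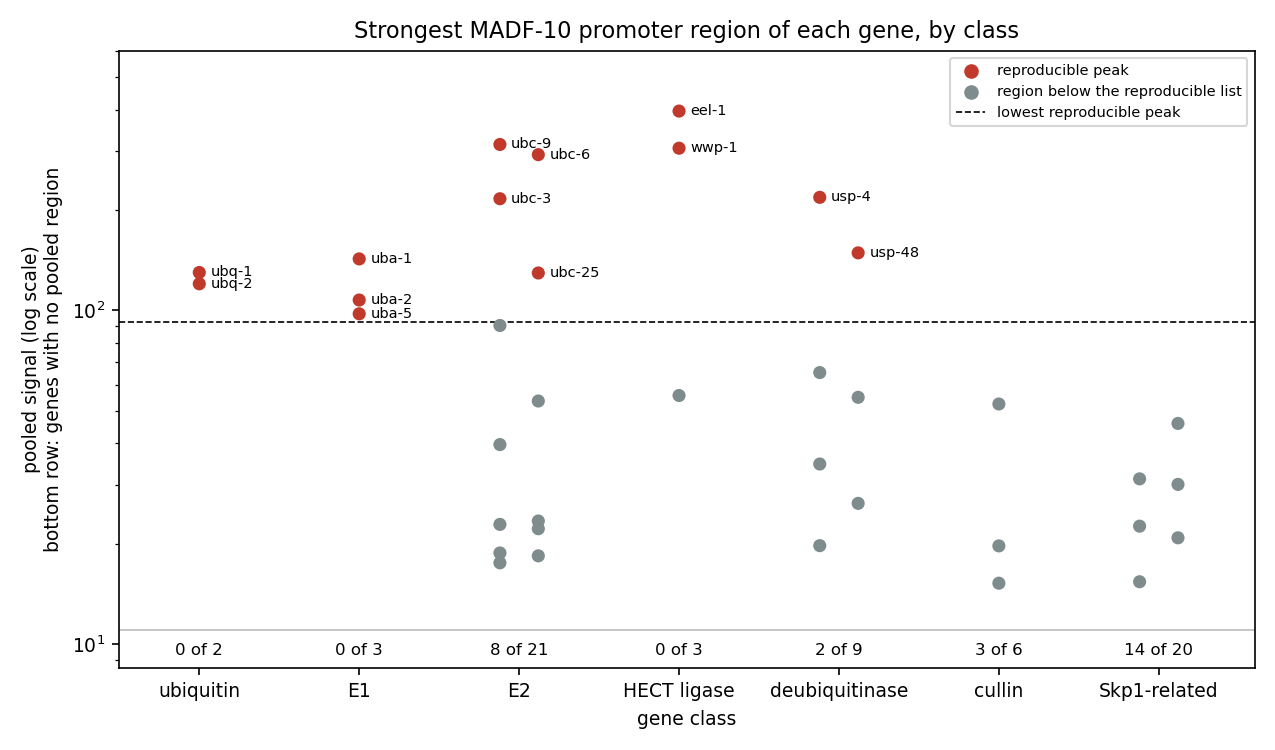
Pooled signal of the strongest promoter region of each gene (vertical axis, log scale) by class (horizontal axis); red points are reproducible peaks, grey points are weaker regions, and the bottom row counts genes with no pooled region. The dashed line is the lowest reproducible peak (92.26), and eel-1 is the highest point at 395.7. Of the 20 Skp1-related genes, 14 have no point, and 12115 of all 19985 protein-coding genes have no pooled region in the promoter window.

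E2 genes ranged from some of the strongest peaks of the whole set to no region at all. The gene ubc-9 (WBGene00006706), which conjugates SUMO, had a pooled signal of 314.3 at rank 155, with 96.6 in replicate 1 and 215.8 in replicate 2 (chromosome IV, 4650670 to 4650922, summit 252 bp upstream). The gene ubc-6 (WBGene00006703), whose yeast counterpart acts in the degradation of proteins of the endoplasmic reticulum, had a pooled signal of 292.99, with 113.2 in replicate 1 and 181.2 in replicate 2 (chromosome II, 7478751 to 7479042, summit 146 bp upstream). Both were within the first 220 regions of every list. The gene ubc-3 (WBGene00006702), the counterpart of yeast CDC34 that works with SCF ligases, had a pooled signal of 216.2, with 64.9 in replicate 1 and 152.8 in replicate 2 (chromosome I, 1697909 to 1698161). The fourth bound gene, ubc-25 (WBGene00006720), differed between replicates, with a pooled signal of 129.5 and with 25.6 at rank 2784 in replicate 1 and 105.7 at rank 760 in replicate 2 (chromosome I, 10562487 to 10562906). These 4 genes had 1 to 2 annotated starts, and the peak at ubc-6 also lay 504 bp upstream of aka-1, on the opposite strand.

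The other 17 E2 genes had weaker regions or none. The gene ubc-7, named after a yeast E2 of endoplasmic reticulum protein degradation, was just outside the reproducible list, with 90.2 at rank 1934 against the limit of 92.26, while uba-5 was the nearest gene inside it with 97.7. In the replicates ubc-7 had 31.3 and 58.97, both below the signals at the rank of the last reproducible peak (32.35 and 64.92). Next came ubc-12, the E2 for NEDD8, with a pooled signal of 53.6 and with 20.9 in replicate 1 and 33.9 in replicate 2, and ubc-1, the counterpart of yeast RAD6, with 39.7. A further 6 E2 genes had pooled signals between 17.5 and 23.4, close to or below the list median of 23.27, and 8 had no pooled region. The last group held ubc-17, ubc-21, ubc-22 and ubc-23 on chromosome X and ubc-15, ubc-16, ubc-19 and ubc-24 elsewhere. Of these, ubc-16 had weak regions in both replicate lists (12.5 and 33.6) and ubc-17 had one in replicate 2 (13.6). A pooled region was present at 13 of the 21 E2 genes (61.9%), against 39.4% of all protein-coding genes.

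Among the ligases, the strongest peak of the set was at eel-1 (WBGene00022069), the counterpart of the large human ligase HUWE1. It had a pooled signal of 395.7 at rank 103, with 118.6 in replicate 1 and 283.3 in replicate 2 (chromosome IV, 3050300 to 3050633, summit between genes and 512 bp upstream). A second reproducible peak upstream of eel-1 (3050771 to 3051032) had a signal of 198.6, with its summit 721 bp from the start. The gene wwp-1 (WBGene00007009), which encodes a ligase with WW domains, had a pooled signal of 306.3, with 66.3 in replicate 1 and 239.7 in replicate 2 (chromosome I, 536722 to 537015, summit 263 bp upstream). The gene hecd-1 was weaker, with a pooled signal of 55.6 and with 27.01 in replicate 1 and 40.2 in replicate 2, and was bound in none of the 3 lists. With a promoter window of 500 bp upstream to 100 bp downstream, eel-1 was not bound and wwp-1 was the 1 bound HECT gene. The other HECT genes of the annotation considered here, etc-1, herc-1, oxi-1 and hecw-1, were bound in 0 of 4 cases. At the share of all protein-coding genes a list of 4 would hold 0.255, so this count is near the background.

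**Figure D3:**
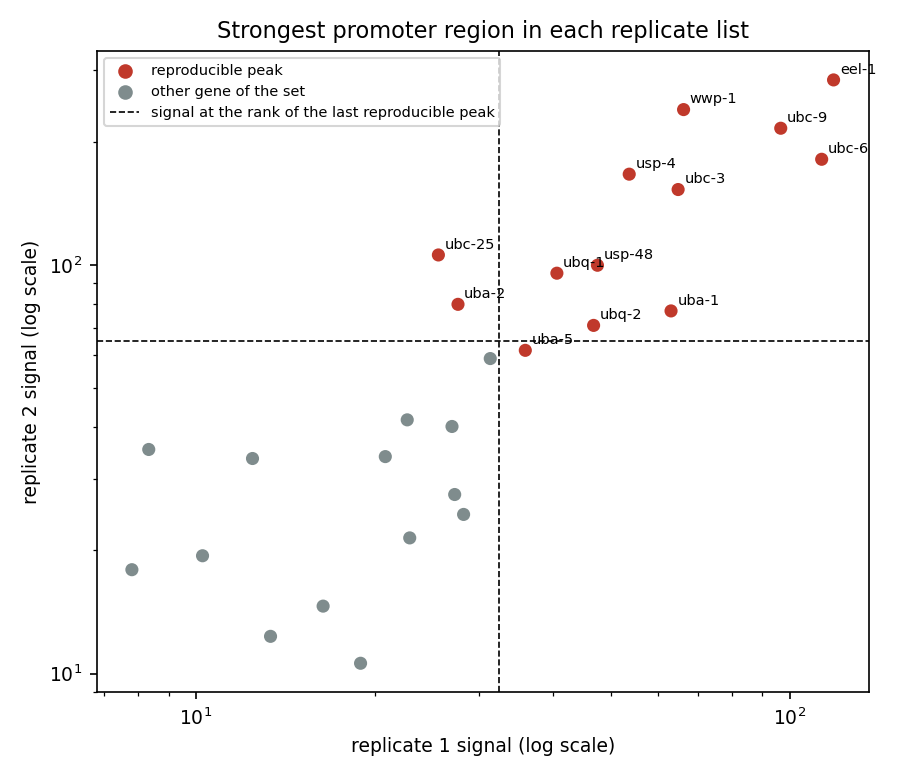
Signal of the strongest promoter region in replicate 1 (horizontal axis, log scale) and replicate 2 (vertical axis, log scale) for the 27 genes with a region in both lists; red points are genes with a reproducible peak and dashed lines mark the signals at the rank of the last reproducible peak (32.35 and 64.92). ubc-25 and uba-2 lie left of the vertical line and uba-5 lies below the horizontal one; the other 10 red points are above both.

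None of the regions at cullin and Skp1-related promoters was in the reproducible list. The strongest cullin gene was cul-3, which works with BTB adaptor proteins, with 52.5 at rank 4316 in the pooled list (chromosome V, 176704 to 177123). In replicate 1 it had 18.9, and the strongest region of its promoter in replicate 2 had 10.6. The gene cul-2 had 19.7 and cul-1, the scaffold of SCF ligases, had 15.2. The genes cul-4, cul-5 and cul-6 had no pooled region, although cul-4 had one of 23.7 in replicate 1. A pooled region was thus present at 3 of the 6 cullin genes (50%), against 39.4% of all protein-coding genes. Of the 20 Skp1-related genes, 6 (30%) had a pooled region, against 39.4% of all protein-coding genes. The strongest were skr-19 (45.9, rank 5288), skr-18 (31.3) and skr-1 (30.1), the last of which encodes the main worm counterpart of Skp1. In 12 of the 20, no list had a region in the promoter window, a share of 60% against 49.5% of all genes. For classes of 6 and 20 genes these shares are near the background.

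Close copies of a sequence can take reads from each other, and this was measured as the share of 36-base stretches of a promoter window that occur again in the genome. It was 34.9% at skr-8, 34.8% at skr-9, 31.7% at skr-13 and 16% at skr-12, and the median of the 20 Skp1-related genes was 0.172%. Among bound genes it was 20.1% at eel-1, 16.2% at ubc-3, 15.6% at usp-48 and 10.4% at ubc-6. Among unbound genes of other classes it was 30.9% at usp-50, 30.1% at ubc-15, 17.1% at cul-3, 10.9% at cul-5 and 10.8% at hecd-1. The sources used here do not give the read length or the treatment of reads with several matches, and the part of repeats in these results was not tested.

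Deubiquitinase genes were bound in 2 of 9 cases. The gene usp-4 (WBGene00019259) had a pooled signal of 218.3 at rank 338, with 53.7 in replicate 1 and 166.6 in replicate 2 (chromosome IV, 6756504 to 6756747), and its summit, 681 bp upstream, was the farthest from a start among the strongest peaks of the bound genes. The gene usp-48 (WBGene00009267) had a pooled signal of 148.8, with 47.5 in replicate 1 and 99.7 in replicate 2 (chromosome I, 9505830 to 9506249). Its summit lay 507 bp upstream of usp-48 but 272 bp upstream of the divergent gene F30A10.9. With the narrow promoter window neither was bound. The next genes were usp-14, a deubiquitinase of the proteasome, with 65.2, and usp-46, which acts on the glutamate receptor GLR-1 in worms, with 54.9. Below them were usp-33 (34.7), usp-3 (26.4) and usp-50 (19.7). The genes usp-5 and usp-39 had no pooled region, and usp-5 had a weak one in replicate 1 (11.8). Among the 5000 strongest pooled regions, 4 of 9 deubiquitinase genes and 19 of all 64 genes (29.7%) had one in the promoter window, against 14.6% of all protein-coding genes.

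The strongest peaks of the 13 bound genes lay upstream of a start, as most promoter peaks did. Every summit was upstream of its nearest start, at a median of -316 bp and between -681 and -146 bp, and the median over all 1275 bound genes was -263 bp, with 1216 upstream. Of the 13 summits, 10 lay between protein-coding genes (76.9%), against 77.5% of the 962 reproducible promoter peaks. The peaks at ubc-6, uba-2, uba-5, usp-48 and ubq-2 also counted for a neighbour, 5 of 13 (38.5%) against 31.9%. None of the 13 had a tRNA gene within 200 bp, and 7.07% of reproducible promoter peaks had one. The replicate 1 summit was within 20 bp of the pooled summit at 9 of the 13 genes and the replicate 2 summit at 12, although the pooled list contains both replicates. The largest distances were 123 bp at usp-48 and 112 bp at ubq-1, both in replicate 1. Their median signal was 148.8, and that of all reproducible promoter peaks was 139.2.

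**Figure D4:**
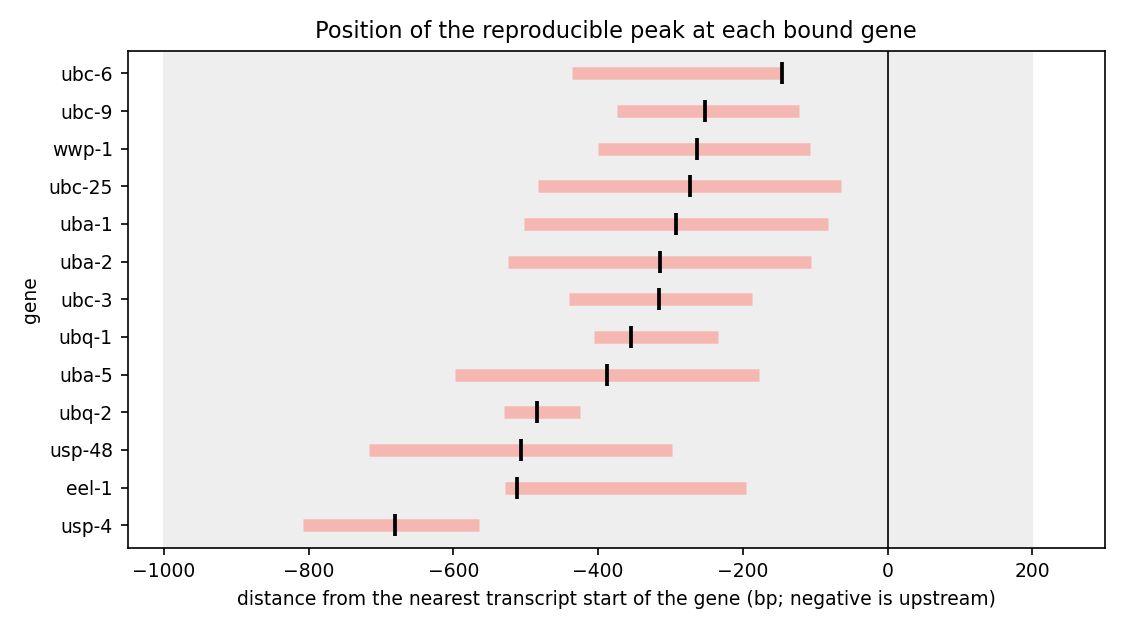
Reproducible peak (pink bar) and its summit (black mark) at each of the 13 bound genes, by distance from the nearest transcript start in bp (horizontal axis, negative is upstream; grey is the promoter window). All summits are upstream, from -681 bp at usp-4 to -146 bp at ubc-6, where the summit is at the edge of the region.

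Genes with several annotated starts have wider promoter windows, and this moved with the class. The median number of starts was 3 for E1 and for HECT genes and 1 for E2, cullin, Skp1-related and deubiquitinase genes. Over all protein-coding genes the bound share was 4.99% with 1 start, 8.31% with 2 and 13.6% with 3 or more. Among the 64 genes it was 5 of 47 (10.6%), 5 of 9 (55.6%) and 3 of 8 (37.5%). The bound genes were also counted by chromosome. Chromosome I held 6 of the 13, from 13 members, where 8.13% of all genes were bound. Chromosomes V and X held none, from 10 and 8 members, where 4.47% and 6.08% of all genes were bound. The part of chromosome and of window size in the class differences was not tested.

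In windows of 50 bp to either side of the summit, searched on both strands, none of the 6 motifs was found at more than 3 of the 13 peaks. CTGCGTCT was found at 2 of the 13 peaks (15.4%), ubq-1 and ubc-3, against 7.76% of reproducible peaks and 0.944% of weak regions. The weak regions were the 14838 regions in the weaker 50% of the pooled list without a reproducible peak. GAGAGA was found at 3 (23.1%), ubq-2, ubc-3 and ubc-25, against 22.9% and 6.5%. TTTGAA was found at 1 (7.69%), wwp-1, against 13.6% and 25.7%. In windows of 100 bp to either side, chosen once the values were known, TTTGAA was found at 7 (53.8%), against 29.4% of reproducible peaks and 44.4% of weak regions. In these wider windows CTGCGTCT was found at 2 (15.4%), against 12% and 1.64%, and GAGAGA at 3 (23.1%), against 37.9% and 12.2%. In the windows of 50 bp, CACGTG, GAANNTTC and the box B consensus of tRNA genes were found at 0. Their shares were 4.44%, 4.17% and 4.92% among reproducible peaks and 1.99%, 6.29% and 0.276% among weak regions. Among the 962 reproducible promoter peaks the shares were 4.16%, 4.47% and 2.29%. Counts of 0 in 13 windows are therefore near the background. The mean GC content was 48.3% for the 13 windows, with a range of 35.6% to 62.4%, and it was 47.8% for reproducible peaks and 36.7% for weak regions.

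Other genes of the pathway, taken from lists of known members outside the name rule, were bound in 13 of 98 cases (13.3%), against 6.38% of all protein-coding genes. These lists too were chosen with earlier results of these data known, so the comparison is a description and no support. At the share of all protein-coding genes the lists of 5, 6, 13, 14, 18 and 24 genes below would hold 0.319, 0.383, 0.829, 0.893, 1.15 and 1.53 bound genes. Among E2 and E2-like genes, let-70 (228.7), the main E2 of the UBE2D type, and uev-1 (105.6) were bound, 2 of 5. Other deubiquitinases were bound in 4 of 13 cases, namely duo-3 (133.4), otub-2 (118.6), ubh-4 (116.4) and math-33. RING, U-box and RBR ligases were bound in 4 of 24, namely mib-1 (233.1), brc-1 (145.7), the worm counterpart of BRCA1, ari-1.4 (139.05) and ubr-4. The anaphase-promoting complex had 2 of 14, emb-1 (327.8) and gfi-3 (109.9), and gfi-3 had no promoter region in replicate 2. The emb-1 peak counts also for prp-19 and K10D2.5, and the mib-1 peak for smc-3 and gly-9. Partners of cullins, such as RING subunits and substrate adaptors, had 1 of 18, kel-3 (180.2). The COP9 signalosome, which takes NEDD8 off cullins, had 0 of 6, and the list of other NEDD8, SUMO and UFM1 genes, which includes aos-1, ula-1 and rfl-1, had 0 of 14. These counts of 0 are near the background for lists of that size. Any pooled region was present at 73 of the 98 genes (74.5%) and at 37 of the 64 (57.8%).

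**Figure D5:**
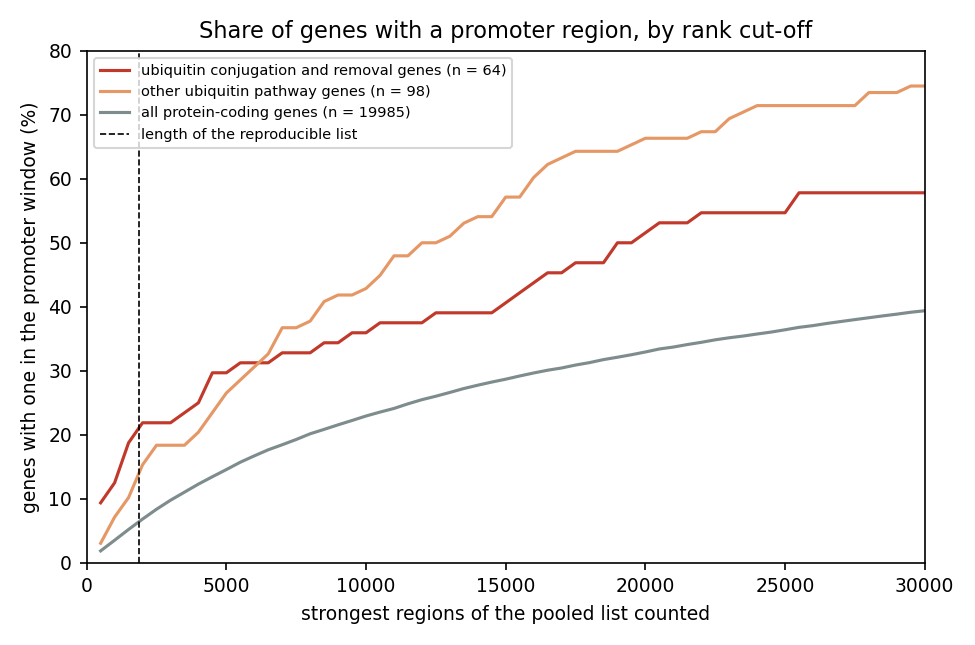
Share of genes (vertical axis, %) with one of the strongest pooled regions in the promoter window, by the number of regions counted (horizontal axis), for the 64 genes, the 98 other genes of the pathway and all protein-coding genes. At 5000 regions the shares are 29.7%, 26.5% and 14.6%, and at the whole list of 30000 they are 57.8%, 74.5% and 39.4%; the dashed line marks the length of the reproducible list.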

How the data were processed

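Regions were taken from the authors' deposited narrowPeak lists. The deposited readme files say that the authors called regions on the alignments of each replicate and of both together, each time with a control file. The reproducible list was drawn from these 3 lists by a threshold on the irreproducible discovery rate. The sources used here do not name the aligner, the caller, the threshold or the depth. The deposited signal (column 7, the authors' value per region) was used within a list only. All 1869 reproducible peaks on ce11 are the strongest regions of the pooled list. Transcript starts came from Ensembl release 115 for WBcel235, the assembly behind ce11, and sequences from the RefSeq copy of that assembly.

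For each replicate alone, its 1869 strongest regions were used. No test was made: counts are set beside all 19985 protein-coding genes. Members, classes and lists were chosen with earlier results of these data known. Genes were named by rule: all bound genes, the strongest and the 2 strongest unbound genes of each class, the 3 HECT genes, and bound genes of the other lists. Names beyond that were chosen after their values were seen, as were the repeat searches. The window assignment was tested on simulated regions. Python 3.11.15, numpy 2.4.6 and pandas 2.3.3 were used.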

Additional observations from a re-analysis of the deposited data

How the results depend on the processing

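Of the 64 genes, 10 to 15 were bound under 9 of the 10 alternatives, and 8 with the stronger 50% of the peaks, where 3.33% of all genes were. Over those 9 the share of all protein-coding genes also moved, from 4.84% with the nearest start only to 9.51% with the looser threshold. It was 5.89% with outermost starts only. The genes bound under every setting were uba-1, ubc-3, ubc-6, ubc-9 and wwp-1. The wide window (2000 bp upstream to 500 bp downstream) added skr-18 and ubc-8, so that 1 Skp1-related gene was bound, and the looser threshold (2878 regions, the length of the ce10 list) added ubc-7. With the stronger 50%, 0 ubiquitin genes and 1 E1 gene were bound. With the nearest start only, 1 ubiquitin gene, 2 E1 genes and 1 deubiquitinase gene were. With outermost starts only, 1 ubiquitin gene and 2 E1 genes were. With the narrow window, 1 HECT gene and 0 deubiquitinase genes were. Of the 98 other genes of the pathway, 7 (7.14%) were bound with the narrow window, 20 (20.4%) with the wide window and 6 (6.12%) with the stronger 50%, where 4.89%, 8.54% and 3.33% of all protein-coding genes were. Leaving out peaks at tRNA genes or counting any overlap with the window left the total at 13, where 6.01% and 6.83% of all genes were bound. Without replicate 1 the total was 12 and without replicate 2 it was 11. In windows of 100 bp to either side of the summit, added after the data were seen, TTTGAA was found at 7 of the 13 peaks, against 29.4% of reproducible peaks and 44.4% of weak regions, and GAANNTTC at 2, against 9.31% and 12.6%. The cause of these differences was not tested, beyond the smaller or larger number of peaks or bases that each setting counts. No paired analysis was possible because the design has 1 group.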

Other observations

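The peak at ubc-6 lay over an inverted repeat. In the window of 101 bases the arms were 28 bp each with a spacer of 44 bp, and in the genome the perfect pairing ran to 62 bp per arm. Copies of the 28 bp arm occurred 71 times, at 43 sites, where copies within 200 bp of each other count as 1 site. Of these sites, 4 (9.3%) lay in a reproducible peak and 19 (44.2%) in a region of the pooled list. At usp-48 the arms were 14 bp with a spacer of 20 bp, copies occurred at 67 sites, and 5 of these (7.46%) lay in a reproducible peak. The counts for both repeats include the site at the bound gene itself, and no share for comparable sites of the genome was measured. Binding at the other copies was therefore not tested. The 101-base window at usp-48 occurred 4 times in the genome, and that at each of the other 12 genes occurred 1 time. Inverted repeats with arms of 10 bp or more were found at 2 of the 13 peaks (15.4%), 2.09% of reproducible peaks and 3.4% of weak regions. This search was made after the sequences had been seen, so the share of 15.4% among the member windows is no support.

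The window at eel-1 held the run CCCCTTTT 3 times, at even spacing, and that at ubc-9 held it 1 time. It was found at 1.12% of reproducible peaks and 0.458% of weak regions, and it was chosen from the member windows, so its share among them (15.4%) is no support.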
